A study of Mus musculus with 4 samples.

Results

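Exhausted T cells carry a set of inhibitory receptors together with the transcription factor TOX, and the transcripts of 8 such genes were followed in tumor-infiltrating Tc1 and Tc9 cells. The set was drawn up by gene name from the known biology of exhaustion, with earlier results of these data known but no measured value in the rule, and holds *Pdcd1*, *Lag3*, *Havcr2*, *Tigit*, *Btla*, *Cd160*, *Cd244* and *Tox*, 8 of the 15981 genes listed in any of the 4 libraries. The cells were CD8+ T cells of Thy1.1+ Pmel-1 mice, whose transgenic receptor recognizes the melanoma antigen gp100, in the C57BL/6 strain. They were cultured for 5 days as Tc1 cells, with rhIL-2, or as Tc9 cells, with IL-4, TGF-β and an antibody to IFN-γ. Per the methods, both were stimulated in the polarizing medium, through CD3 and CD28 or in some experiments with gp100 peptide, and spent the last days of the culture in rhIL-2 medium without the polarizing mix. Both kinds of cell were then given intravenously to Thy1.2+ hosts that carried 10-day subcutaneous B16 melanomas, and per the study's methods hosts of this tumor model also received cyclophosphamide, peptide-pulsed dendritic cells and rhIL-2. The cells were sorted from the tumors 14 days after transfer, and RNA of several mice was pooled into 2 libraries per group. How many mice went into each library could not be worked out, so p-values measure only the spread between these pools.

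Inhibitory receptors sit in the membrane of activated T cells and dampen signals from the T cell receptor, mostly by recruiting phosphatases to tyrosine motifs in their tails. They appear briefly after any activation and stay on when antigen persists, as in tumors and chronic infection, where several are found together on exhausted CD8+ T cells. TOX, a DNA-binding protein of the HMG-box family, is known to hold the chromatin program of exhausted cells in place. Transcripts, not surface proteins, were measured here, and in bulk RNA fewer cells with a transcript and less of it per cell cannot be told apart.

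To show the regulatory sequence at the start of member genes, the 250 bases before transcript start sites listed by RefSeq were read (build GRCm38.p6), which gave windows for 6 of the 8 members: *Pdcd1*, *Havcr2*, *Tigit*, *Btla*, *Cd160* and *Cd244*. No window was available for *Tox* or for *Lag3*, the only member that passed a test below. The 3 windows given here are those of the receptor with values in all 4 libraries (*Tigit*, chr16:43664185-43664434, minus strand), of the target of PD-1 blockade (*Pdcd1*, chr1:94052554-94052803, minus strand) and of TIM-3 (*Havcr2*, chr11:46454681-46454930, plus strand). They are written 5′ to 3′ along the gene. The *Tigit*, *Btla* and *Cd244* windows and the downstream one of *Cd160* lie inside the RefSeq gene model, whose outermost start is farther upstream. Capitals mark GGAAA or its reverse complement TTTCC, the core read by NFAT, in *Tigit* and *Pdcd1*, and TGANTCA, the AP-1 motif, in *Havcr2*.
Tigit: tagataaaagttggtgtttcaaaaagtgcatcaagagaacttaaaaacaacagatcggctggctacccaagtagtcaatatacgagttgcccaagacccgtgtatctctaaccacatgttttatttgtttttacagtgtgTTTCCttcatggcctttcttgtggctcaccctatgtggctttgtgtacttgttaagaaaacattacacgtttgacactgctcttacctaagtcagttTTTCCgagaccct
Pdcd1: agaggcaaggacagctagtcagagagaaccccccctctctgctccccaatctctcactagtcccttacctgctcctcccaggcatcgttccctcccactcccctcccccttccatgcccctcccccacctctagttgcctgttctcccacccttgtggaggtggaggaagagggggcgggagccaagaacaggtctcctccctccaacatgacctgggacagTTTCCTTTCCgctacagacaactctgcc
Havcr2: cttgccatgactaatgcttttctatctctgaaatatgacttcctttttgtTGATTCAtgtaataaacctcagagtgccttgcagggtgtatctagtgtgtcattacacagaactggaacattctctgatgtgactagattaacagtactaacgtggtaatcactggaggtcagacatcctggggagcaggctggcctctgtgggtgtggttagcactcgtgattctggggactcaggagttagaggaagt
*Tigit* and *Pdcd1* each held 2 matches to the NFAT core, which in *Pdcd1* stand side by side near the start site, and *Havcr2* held 1 match to the AP-1 motif. The *Cd244* window held 1 of each, the *Btla* window none, and the more upstream of 2 *Cd160* starts none. The downstream *Cd160* start had 1 NFAT core and 1 match to TTCNNNGAA, a STAT motif. AAGGTCA, read by NR4A receptors, and AGGTGTGA, a T-box motif, were in none of the members' windows. All motifs were searched on both strands. Of 32851 mouse promoter windows of this length, 55.6% held the NFAT core, 6.75% the AP-1 motif, 7.02% the STAT motif, 4.08% the NR4A motif and 1.12% the T-box motif, so a match to the NFAT core is common and none of these letters shows a bound factor.

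The deposited tables list genes in the character order of their identifiers and reach different points in it, so the libraries cover the members unequally. *Tigit* was covered by all 4 libraries, *Lag3* and *Havcr2* by 3 (Tc1 replicate 2 and both Tc9 libraries), *Pdcd1*, *Btla*, *Cd244* and *Tox* by the 2 replicate 2 libraries, and *Cd160* by Tc9 replicate 2 alone. The values are expected counts, estimated reads per gene that need not be whole. CPM are those counts per 1e+06 counts of the library, adjusted by a composition factor, and FPKM are fragments scaled by gene length and library size, used wherever genes are compared with each other. Depths lay between 30822953 and 31927162 counts, where 3 counts, taken as the detection floor, come to at most 0.0973 CPM. The 2 Tc1 libraries were closer to each other than the 2 Tc9 libraries. For 95% of genes the Tc1 pair differed by less than 0.54 on the log2 scale (1279 genes) and the Tc9 pair by less than 0.71 (2587 genes).

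The labelled cell type held up against its markers. All 9 CD8 T cell markers were detected wherever covered, with *Cd8a* at 223.24 and 223.07 FPKM in Tc1 and 219.77 and 208.68 FPKM in Tc9 libraries. Of the 6 CD8 markers tested in all libraries, *Cd3e* and *Cd3g* rose and *Cd2* fell in Tc9 cells (edgeR adjusted p = 0.0108, 0.00995 and 0.0107), where 17.4% of all genes passed as higher and 16.7% as lower. In the 3-library fit *Cd3g* and *Cd2* did not pass (edgeR adjusted p = 0.286 and 0.142). *Cd4* stayed between 0.48 and 0.64 FPKM in all 4 libraries. *Foxp3*, the transcription factor that defines regulatory T cells, was at 34.61 counts in the Tc1 and 1591.62 in the Tc9 replicate 2 library (log2 ratio 5.44). *Il2ra*, the high-affinity IL-2 receptor chain, passed as higher in Tc9 cells in the fit of 1 Tc1 and 2 Tc9 libraries (log2 fold change 0.59 ± 0.22 SE, edgeR quasi-likelihood test, Benjamini-Hochberg adjusted p = 0.0362). Without the filter on low counts no gene passed in that fit. The 3 genes of this CD4 and regulatory T cell list summed to 342 FPKM in Tc1 replicate 2 and to 557 (*Foxp3* not covered) and 536 FPKM in Tc9 replicates 1 and 2, nearly all of it *Il2ra*. The defining NK cell markers *Ncr1*, *Klrb1c* and *Klra8* had at most 8 counts, *Klre1* had 31 in both replicate 2 libraries, and the 5-gene list summed to 27.6 FPKM in Tc1 and to 18.6 and 18.5 in Tc9 libraries, mostly *Eomes*, which CD8 T cells also express. Of B cell markers, *Ms4a1* had at most 4 counts, while *Cd79b* went from 155 counts in Tc1 to 380 and 473 in Tc9 libraries (adjusted p = 5.98e-06, same edgeR test with 1 Tc1 and 2 Tc9 libraries). Of 8 myeloid markers, *Lyz2*, *Csf1r*, *Adgre1* and *Cd14* had 0 to 3 counts, and *Cd68* rose (log2 fold change 0.84 ± 0.15, adjusted p = 0.00295, same test in 4 libraries). *Cd74*, the highest, did not pass (3-library log2 fold change -0.19, adjusted p = 0.644), *Itgam* had 12 counts in Tc1 and 9 and 2 in Tc9 libraries, *Itgax* 153.74 against 170.95 and 187.53, and the list summed to 31 FPKM in Tc1 and to 30.6 and 38.1 in Tc9 libraries. The melanoma genes listed (*Pmel*, *Tyr* and *Mitf*) summed to 0.57 FPKM in Tc1 and 0.97 in Tc9 replicate 2. The part that *Foxp3*, *Cd79b* or *Cd68* transcripts had in the receptor values below was not tested.

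**Figure D1:**
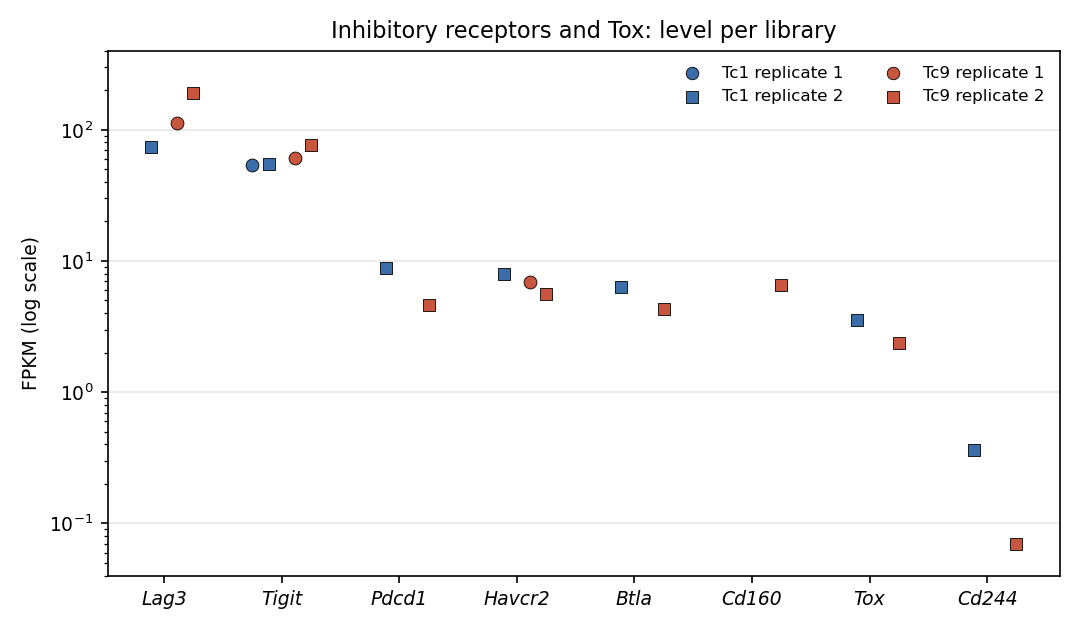
Level of each member in every library that covers it, as FPKM on a log axis, with Tc1 in blue, Tc9 in red, circles for replicate 1 and squares for replicate 2. *Lag3* and *Tigit* lie between 53.46 and 189.75 FPKM and higher in Tc9, while the remaining members lie under 9 FPKM and, where both groups are covered, lower in Tc9.

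Between members, *Lag3* and *Tigit* stood far above the rest and *Cd244* far below. In Tc1 replicate 2 the order by FPKM was *Lag3* (73.85), *Tigit* (54.58), *Pdcd1* (8.85), *Havcr2* (8.02), *Btla* (6.35), *Tox* (3.58) and *Cd244* (0.36). In Tc9 replicate 2 it was *Lag3* (189.75), *Tigit* (76.78), *Cd160* (6.52), *Havcr2* (5.58), *Pdcd1* (4.64), *Btla* (4.32), *Tox* (2.37) and *Cd244* (0.07). The top of the order and its last places were thus the same in both groups, and *Pdcd1* and *Havcr2* changed places. On the log2 scale the gap below *Tigit* was 2.62 in Tc1 and 3.56 in Tc9 replicate 2, and the gap above *Cd244* was 3.31 and 5.08. Between *Pdcd1*, *Havcr2* and *Btla*, neighbours lay at most 0.34 apart in both libraries, and the gap from *Btla* down to *Tox* was 0.83 and 0.87. The spread between libraries is no yardstick for gaps between genes, so the order of close neighbours was not tested. Among all genes with a value in the range of the replicate 2 libraries, *Lag3* stood at percentile 91.1 of FPKM in Tc1 and 97 in Tc9 cells, whereas *Pdcd1* stood at 58.7 and 46.4.

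The most abundant member was *Lag3* (chromosome 6, 124904359 to 124912434, minus strand), a CD4-related receptor that binds MHC class II. It had 4455 counts in Tc1 replicate 2, 6610 in Tc9 replicate 1 and 11034 in Tc9 replicate 2. In CPM these were 142, 210 and 351, so both Tc9 libraries lay above the Tc1 library, and they also lay apart from each other. The Tc9 pair differed by 0.74 on the log2 scale, more than 95.5% of genes. In the fit of the 3 libraries, *Lag3* passed as higher in Tc9 cells with a log2 fold change of 0.96 ± 0.27 (SE), or 1.94-fold (edgeR quasi-likelihood test, Benjamini-Hochberg adjusted p = 0.00324, n = 1 Tc1 and 2 Tc9 libraries). In that fit 12.5% of 2622 genes passed as higher and 7.93% as lower in Tc9, and of the 3 members covered *Lag3* was the 1 that passed. Here and in every 3-library call given for other genes, the single Tc1 library is assumed to vary as the Tc9 pair does, and the spread is that of all genes of like abundance, so the gap between the Tc9 pools in *Lag3* itself does not enter the SE. The call was lost without the filter on low counts (adjusted p = 0.363, where no gene of this fit passed) and with composition factors taken from the 4-library gene range (adjusted p = 0.145), with the fold change nearly the same at 0.96 and 0.99. Against Tc1 replicate 2, Tc9 replicate 1 alone gave 0.57 and Tc9 replicate 2 alone 1.31, both without a test.

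*Tigit* (chromosome 16, 43626137 to 43665125, minus strand) encodes the receptor that competes with the costimulatory receptor CD226 for the ligands PVR and nectin-2. Its counts were 1404 and 1423 in Tc1 replicates 1 and 2, and 1564 and 1949 in Tc9 replicates 1 and 2, or 44.5, 45.3, 49.8 and 62 CPM. The Tc1 libraries were almost equal and Tc9 replicate 2 was the highest. The log2 fold change was 0.32 ± 0.13 (SE), 1.25-fold, and it did not pass (edgeR quasi-likelihood test over 1284 genes in the 4 libraries, Benjamini-Hochberg adjusted p = 0.0897). In that fit 17.4% of genes passed as higher and 16.7% as lower in Tc9. An exact permutation test of 2 against 2 libraries cannot give a two-sided p under 0.333. Leaving out Tc9 replicate 1 gave 0.47 and an adjusted p of 1.63e-09 in the same edgeR test, whereas leaving out Tc9 replicate 2 gave 0.15 and 0.0688, so the size of the difference rests on which Tc9 pool is used. The tested genes whose pattern over the 4 libraries was nearest to that of *Tigit* were *Adcy3*, *Acads* and *Egln2*, at Euclidean distances of 0.0519, 0.0536 and 0.0552 in gene-centred log2 CPM. *Adcy3*, for example, had 1028, 1005, 1090 and 1384 counts in the same order. The RefSeq model of *Tigit* overlaps *Zbtb20* on the opposite strand. Since nothing at hand says that counting used the strand, reads there cannot be told apart.

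*Havcr2* (chromosome 11, 46454931 to 46481255, plus strand), the gene of TIM-3, had 661 counts in Tc1 replicate 2, 556 in Tc9 replicate 1 and 445 in Tc9 replicate 2. These were 21.1, 17.7 and 14.2 CPM, so both Tc9 libraries lay below the Tc1 library. The log2 fold change was -0.43 ± 0.24 (SE) and did not pass (edgeR quasi-likelihood test, Benjamini-Hochberg adjusted p = 0.217, 3 libraries). *Lag3* and *Havcr2* thus lay on opposite sides of the Tc1 library in both Tc9 pools. Within a library, *Lag3* had 9.21 times the FPKM of *Havcr2* in Tc1 replicate 2, 16.3 times in Tc9 replicate 1 and 34 times in Tc9 replicate 2.

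**Figure D2:**
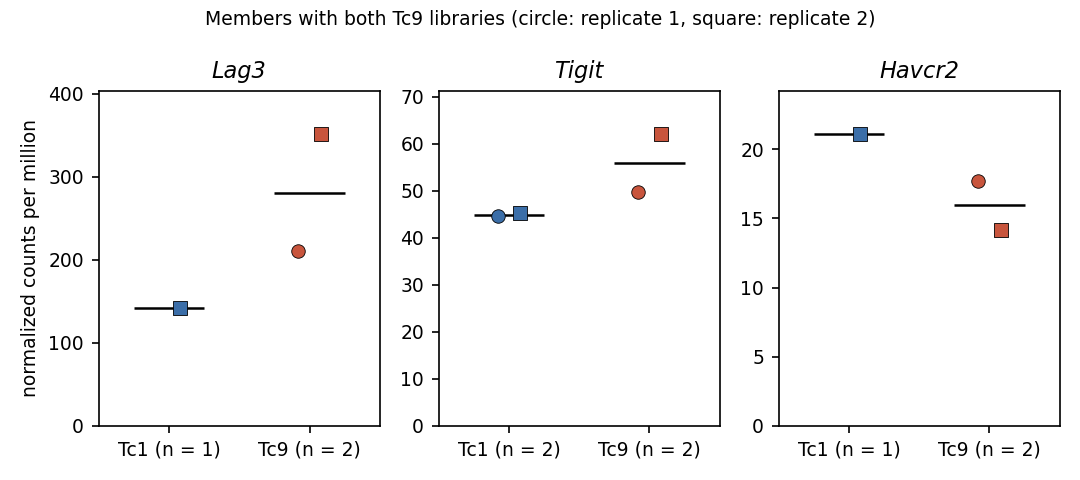
Normalized CPM of the 3 members covered by both Tc9 libraries, with circles for replicate 1, squares for replicate 2 and a line at the group mean (a single library for Tc1 in *Lag3* and *Havcr2*). *Lag3* goes from 142 to 210 and 351, *Tigit* from 44.5 and 45.3 to 49.8 and 62, and *Havcr2* from 21.1 to 17.7 and 14.2.

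The other members can be compared between the replicate 2 libraries alone. With 1 library per group there is no test, and the Wilson 95% intervals given cover counting error only. The difference between the Tc9 pools, 0.71 on the log2 scale, is printed as the yardstick of library spread. *Pdcd1* (chromosome 1, 94038305 to 94052553, minus strand), which encodes PD-1, the receptor of PD-L1 and PD-L2, reached 517 counts in the Tc1 and 262 in the Tc9 library. That was 16.5 against 8.33 CPM, or -0.98 as a log2 ratio (-1.20 to -0.77), 1.97-fold lower in Tc9. The whole interval lay below the library spread. The FPKM of *Lag3* was 8.34 times that of *Pdcd1* in the Tc1 library and 40.9 times in the Tc9 library, and that of *Tigit* 6.17 and 16.5 times. *Pdcd1* and *Havcr2*, in contrast, kept close to each other, with ratios of 1.1 and 0.832.

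*Btla* and *Cd160* encode the receptors that share HVEM, the product of *Tnfrsf14*, as a ligand. *Btla* (chromosome 16, 45223705 to 45252895, plus strand) reached 640 counts in the Tc1 and 417 in the Tc9 library, or 20.4 and 13.3 CPM. The log2 ratio of -0.62 (-0.80 to -0.44) did not reach the spread of 0.71. *Cd160* (chromosome 3, 96798763 to 96829351, minus strand) had 475 counts, 15.1 CPM and 6.52 FPKM in Tc9 replicate 2, at percentile 54.1, and gives no comparison. Its model overlaps the start of *Pdzk1* on the opposite strand.

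*Cd244* (chromosome 1, 171558718 to 171585316, plus strand), also called 2B4, is the member of the SLAM family that binds CD48. It was the lowest of the set, with 39 counts in the Tc1 and 8 in the Tc9 library, or 1.24 and 0.254 CPM, both above the floor of 3 counts. The log2 ratio was -2.04, and its interval was wide (-3.36 to -1.22) but lay outside the library spread. With 1 FPKM added to both sides the ratio was -0.35, since both levels were below 1 FPKM. In GENCODE M21 the gene runs on across *Ly9* on the opposite strand, which the RefSeq model does not, and the tables count 3 added transcripts for *Cd244*, so some reads may belong to *Ly9*.

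*Tox* (chromosome 4, 6686353 to 6991557, minus strand) was the only member that is no receptor. It reached 299 counts in the Tc1 and 193 in the Tc9 library, or 9.53 and 6.14 CPM, and its log2 ratio of -0.63 (-0.89 to -0.37) lay within the library spread. *Btla* and *Tox* kept their proportion, at 1.77 and 1.82 in FPKM. The model overlaps *Gm11802* on the opposite strand.

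Across the replicate 2 libraries, *Havcr2* had a log2 ratio of -0.57 (-0.75 to -0.40), *Tigit* of 0.45 (0.35 to 0.55) and *Lag3* of 1.31 (1.26 to 1.36). Of the 7 members covered, 5 were thus lower and 2 higher in Tc9, where 48.2% of 6225 genes were lower. The median of the members was -0.62 and that of all genes 0.03. Beyond the library spread, 1 member was higher (*Lag3*) and 2 were lower (*Pdcd1* and *Cd244*), where 17% of all genes were higher and 9.48% lower by that much. With the members this few, these counts are a description.

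**Figure D3:**
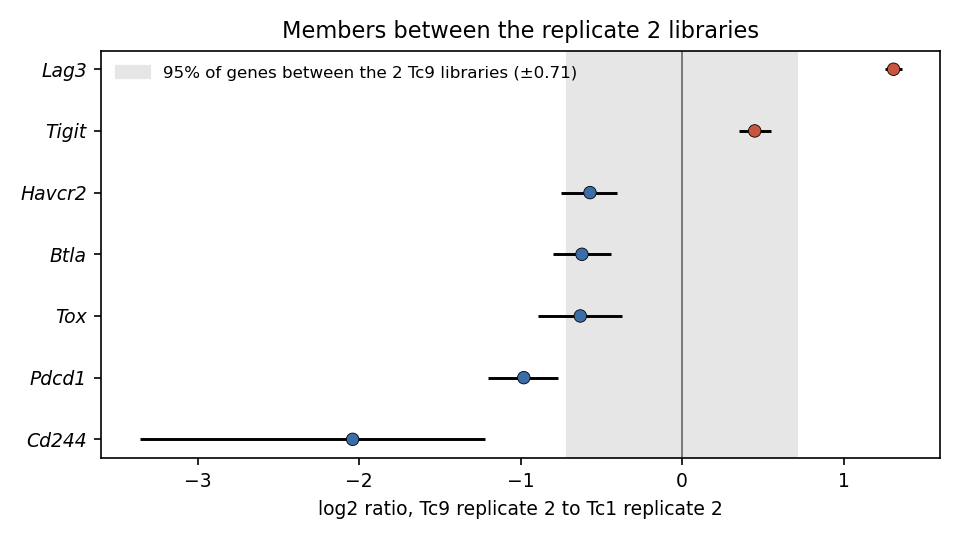
Log2 ratio of Tc9 to Tc1 replicate 2 for the 7 members covered by both (points), with Wilson 95% intervals of counting error (lines) and the range within which 95% of genes differ between the 2 Tc9 libraries (grey, ±0.71). *Lag3* lies above the grey range at 1.31, *Pdcd1* and *Cd244* below it at -0.98 and -2.04, and *Tigit*, *Havcr2*, *Btla* and *Tox* have their points inside it.

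Genes listed as ligands and counter-receptors of the set, with the related B7 genes *Cd80* and *Cd86*, were also expressed in the sorted cells. Several had larger ratios than most members. Of 17 listed genes, 3 were tested in the 4 libraries and 2 passed, both lower in Tc9, where 16.7% of all tested genes passed as lower and 17.4% as higher. The 2 were the B7 genes, whose products bind CD28 and CTLA-4, which are not members, and neither is a direct ligand of a member. *Cd80*, which binds CD28, CTLA-4 and PD-L1, fell in Tc9 cells, with 1724 and 1699 counts against 175 and 152 (log2 fold change -3.38 ± 0.13, edgeR adjusted p = 2.91e-07). *Cd86*, the other B7 ligand, fell likewise, with 41 and 37 against 16 and 11 counts (-1.52 ± 0.33, edgeR adjusted p = 0.00688), a call lost with DESeq2 (adjusted p = 0.0736). Of 6 genes tested in the 3 libraries, 1 rose and the same 2 fell, against 12.5% and 7.93% of all genes. *Lgals3*, a galectin that can bind LAG-3, went from 922 counts in Tc1 to 3495 and 3861 in Tc9 (1.97 ± 0.28, edgeR adjusted p = 1.91e-10, and 0.127 without the filter on low counts). The third gene tested in the 4 libraries was *Cd48*, the ligand of the member CD244. It did not pass, at 2806 and 2971 counts for Tc1 against 3393 and 2867 for Tc9 cells (0.12 ± 0.12, edgeR adjusted p = 0.477).

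Between the replicate 2 libraries, 10 of these listed genes could be compared. Of these 6 were lower in Tc9 (48.2% of all genes), and the median log2 ratio was -0.15. Beyond the library spread 4 were higher and 4 lower, with *Cd80* and *Cd86* among the latter, against 17% and 9.48% of all genes. *Ceacam1*, a TIM-3 ligand, was at 294 counts in the Tc1 and 43 in the Tc9 library (-2.72, -3.24 to -2.32), and *Nectin2*, a TIGIT ligand, had 13 and 56 (1.95, 1.25 to 2.96). Singled out after their values were seen because they pair with members, *Cd226* had 2033.91 and 3810.33 counts (log2 ratio 0.90, 0.83 to 0.98) and *Tnfrsf14* 677.71 and 1187.14 (0.80, 0.67 to 0.94). *Lgals9* and *Hmgb1*, other TIM-3 ligands chosen in the same way, had 3-library log2 fold changes of -0.46 ± 0.25 and -0.50 ± 0.24 and did not pass (edgeR adjusted p = 0.192 and 0.127). Between the replicate 2 libraries *Hmgb1* had -0.85 (-0.89 to -0.82), beyond the library spread, and *Lgals9* -0.25 (-0.32 to -0.18). Another 6 ligand genes were covered by Tc9 replicate 2 alone, among them the PD-1 ligand genes *Cd274* at 12.8 FPKM and *Pdcd1lg2* at 10.61 FPKM.

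A further list held 13 genes, mostly of other inhibitory receptors but also the ectoenzyme genes *Cd38* and *Entpd1*. Of these, 4 were tested in the 4 libraries, and 1 rose and 1 fell, where 17.4% and 16.7% of all genes did. The others tested there did not pass. They were *Ctla4* (log2 fold change 0.34 ± 0.14, edgeR adjusted p = 0.0861) and *Entpd1* (0.33 ± 0.16, edgeR adjusted p = 0.128). *Cd38*, an ectoenzyme found on exhausted cells, rose in Tc9 cells, with 142 and 176 counts against 330 and 255 (log2 fold change 0.88 ± 0.19, edgeR adjusted p = 0.00613), a call lost without Tc1 replicate 1 (0.73, adjusted p = 0.0521). *Cd5*, a scavenger receptor that dampens T cell receptor signals, fell from 3617 and 3753 to 2233 and 2585 (-0.61 ± 0.12, edgeR adjusted p = 0.00397), and leaving out Tc1 replicate 1 or 2 gave -0.64 and -0.57 with adjusted p = 0.0639 and 0.125. Of 5 genes in the 3-library test (all genes, 12.5% higher and 7.93% lower), *Cd5* fell and *Lilrb4a* rose from 758.47 to 1258.6 and 1289.02 counts (0.72 ± 0.25, edgeR adjusted p = 0.0269), a call lost with DESeq2 (adjusted p = 0.0561), without the filter (0.217) and with the 4-library factors (0.0827). *Lilrb4a* has a near-identical neighbour with which it can share reads. Between the replicate 2 libraries 5 genes could be compared, 4 of them higher and 1 lower in Tc9 (48.2% of all genes were lower), with 1 higher beyond the library spread (17% of all genes). Their median log2 ratio was 0.29, which was the value of *Entpd1* (CD39; 0.00 to 0.57).

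Among 15 listed genes of proteins that carry the receptors' signals, the 1 tested in 4 libraries and the 8 tested in 3 gave 0 calls with edgeR and 0 with DESeq2 (1 of the 8 had an unadjusted p under 0.05 with either tool). In the edgeR fit of 3 libraries 12.5% of all genes passed as higher and 7.93% as lower, a share that gives few calls in a list of this size. The 8 included the phosphatase genes *Ptpn6* (-0.52 ± 0.25, edgeR adjusted p = 0.136) and *Inpp5d* (0.08 ± 0.26, adjusted p = 0.862). Between the replicate 2 libraries 12 were compared, 4 of them lower in Tc9 (48.2% of all genes), with a median of 0.12. Over all genes 17% were higher and 9.48% lower by more than the library spread. In this list the one value beyond it was that of *Sh2d1a*, which encodes SAP, the adaptor of CD244 and other SLAM receptors. It was at 1241 counts in the Tc1 and 418 in the Tc9 library, and the log2 ratio was -1.57 (-1.73 to -1.41). *Cblb*, a ubiquitin ligase that restrains activation, had -0.63 (-0.68 to -0.57), *Bag6*, whose product binds the tail of TIM-3, 0.56 (0.51 to 0.60) and the kinase gene *Csk* 0.54 (0.50 to 0.58).

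*Cd244* and *Sh2d1a* were therefore both lower in the Tc9 library, while *Cd48*, the gene of the CD244 ligand, was nearly level, at a log2 ratio of -0.05 (-0.13 to 0.02). In the rest of the SLAM family, 0 of the 2 genes tested in 4 libraries and 0 of the 3 tested in 3 passed with edgeR or DESeq2, and 0 had an unadjusted p under 0.05. Over all genes in edgeR, 17.4% passed as higher and 16.7% as lower in 4 libraries, and 12.5% and 7.93% in 3. Such shares give few calls in a list of this size. Between the replicate 2 libraries all 3 that could be compared had ratios below 0 (48.2% of all genes), with a median of -0.08. The intervals of *Cd48* and *Cd84* (-0.08, -0.20 to 0.04) included 0. *Ly9* had the lowest ratio at -0.50 (-0.59 to -0.41), within the library spread. Another 5 SLAM genes were covered by Tc9 replicate 2 alone, with *Slamf7* highest at 28 FPKM.

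Of 22 transcription factors tied to exhaustion, 2 were tested in the 4 libraries (all genes, 17.4% higher and 16.7% lower) and *Prdm1* fell, with 336 and 359 counts in Tc1 against 89 and 108 in Tc9 (log2 fold change -1.81 ± 0.17, edgeR adjusted p = 3.96e-05). *Prdm1* encodes BLIMP-1, which is known to promote terminal differentiation and inhibitory receptor expression. Of 9 genes in the 3-library test, 3 rose and *Prdm1* fell, where 12.5% of all genes passed as higher and 7.93% as lower. *Maf*, a bZIP factor, rose from 38 counts to 936 and 874 (4.54 ± 0.35, edgeR adjusted p = 8.12e-36). *Irf4*, a factor induced by T cell receptor signals, rose from 18150 to 44730 and 42747 (1.24 ± 0.24, adjusted p = 3.91e-06, same test). *Id3*, an inhibitor of E proteins found in memory precursors, rose from 104 to 224 and 215 (1.05 ± 0.30, edgeR adjusted p = 0.00389) and lost the call with DESeq2 (adjusted p = 0.0914). Without the filter on low counts *Maf*, *Irf4* and *Id3* had adjusted p = 0.123, 0.142 and 0.172 in edgeR, where no gene of the 3-library test passed.

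Of the 18 such factors compared between the replicate 2 libraries, 10 were lower in Tc9 (median log2 ratio -0.15), and 5 lay below and 3 above the library spread. Over all genes 48.2% were lower, 9.48% below and 17% above that spread. Chosen after their values were seen as the nearest relatives of *Tox* and as known regulators of it, *Tox4* had -0.10 (-0.16 to -0.03), *Tox3* had 2 counts and 0, *Nfatc1* had 0.39 (0.33 to 0.45) and *Nfatc2* 0.24 (0.19 to 0.29). The 3 NR4A genes, chosen in the same way, were all below 0, with *Nr4a1* at -0.37 (-0.60 to -0.14), *Nr4a2* at -0.20 (-0.45 to 0.04) and *Nr4a3* at -0.87 (-0.98 to -0.76), of which *Nr4a3* alone exceeded the library spread. The others below the spread were *Prdm1* (-1.72), *Ikzf2* (-0.98), *Bhlhe40* (-0.81) and *Myb* (-0.73). *Tox2* had 23 counts in Tc9 replicate 2 and was not covered elsewhere.

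**Figure D4:**
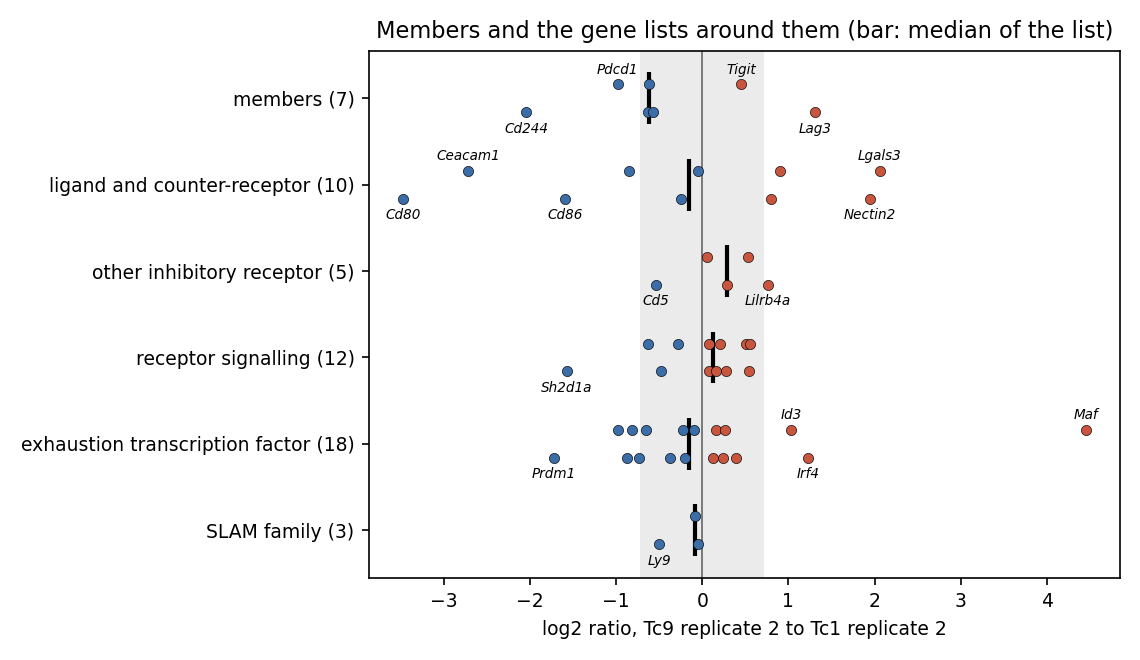
Log2 ratio of Tc9 to Tc1 replicate 2 for the members and for the genes of 5 lists around them, 1 point per gene, with a black bar at each list's median, the number of genes in brackets and the ±0.71 library spread in grey. The members' median is -0.62 and the list medians lie between -0.15 and 0.29, with *Cd80* (-3.47) and *Maf* (4.45) farthest out.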

How the data were processed

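RNA-Seq was made from 2 pooled libraries each of tumor-infiltrating Tc1 and Tc9 cells. The authors deposited expected counts per gene, not normalized, FPKM values scaled by gene length and library size, and a length per gene. The submitters' notes name build mm10, and the aligner and counter are not given in the sources used here. An incomplete last row was dropped, and genes absent from a table before its last identifier were taken as 0. As the tables list 1535, 7408 (Tc1), 3152 and 15442 (Tc9) genes, depth came from the ratio of count to FPKM.

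Counts were rounded, scaled by TMM and tested with edgeR 4.0.16 in R 4.3.3 (quasi-likelihood, two-sided, minimum count 10, Benjamini-Hochberg at 0.05), over 1681 genes in 4 libraries (1284 tested) and 3436 genes in 3 (2622 tested). Log2 ratios used a prior count of 2 and genes with 10 or more counts in either library. DESeq2 1.42.0 and limma 3.58.1 on log2(FPKM + 1) or log2(FPKM + 0.1) were alternatives. The edgeR script was tested on simulated data. Intervals and floors cover counting error alone, as reads that carry no molecular identifier may repeat a molecule. The mean chi-square per gene between replicates was 4.55 (median 1.08) for Tc1 and 60.1 (median 7.1) for Tc9. Sampling noise gives a mean of 1 and a median below 1, so no library was taken for a repeat of another, although most genes of the Tc1 pair differed little.

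The members and lists were chosen with earlier results of these data known. The genes named are the members, list genes past the threshold, at most 4 per list with the largest replicate 2 ratios, markers and the 3 genes nearest to *Tigit*. Genes named outside this rule are said to be so or serve as examples of their list. Positions and promoter windows come from RefSeq (GRCm38.p6), strands and overlaps from GENCODE M21. The design assumed that every library covered every gene, and the split into 4, 3 and 2 libraries replaced this. No other column of per-sample values was left out. Results of 1 marker gene are not reported here.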

Additional observations from a re-analysis of the deposited data

How the results depend on the processing

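No fold change or ratio turned direction under any alternative run. In the 4 libraries, genes lower in Tc9 numbered 214, and 139 without the filter on low counts. Leaving out 1 library gave 99 to 424 genes higher (224 with all) and 74 to 430 lower, and a *Tigit* log2 fold change of 0.15 to 0.47, which passed without Tc9 replicate 1. For named genes of the lists, 12 of the values run lost their call, 4 (*Id3*, *Irf4*, *Lilrb4a* and *Maf* in fits of 1 against 1 library, with no test) moved by more than that gene's own SD between the Tc9 libraries, and 82 did neither. An arm left with 1 library is assumed to vary like the other.

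In the 3 libraries, 327 genes higher and 208 lower became 0 and 0 without the filter (edgeR, 611 of 3431 genes at an unadjusted p under 0.05), 208 and 117 with DESeq2, and 197 and 84 with TMM factors of the 4-library range, an alternative chosen after seeing the data. Genes lower were 112 with log2(FPKM + 1) and 115 with log2(FPKM + 0.1). *Lag3* kept 0.96 without the filter and 0.99 with the 4-library factors but no longer passed. Over its alternatives with a test, its adjusted p ran from 0.000715 to 0.363.

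Between the replicate 2 libraries, *Lag3* had 1.36 scaled by depth alone. With Tc9 replicate 1 averaged in, *Lag3* had 0.94 and *Tigit* 0.29. *Cd244* had -0.35 as a ratio of FPKM + 1, and at 8 and 39 counts depth limits it.

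With the replicate number as a block, 231 genes were higher and 213 lower, and *Tigit* had 0.31 (adjusted p = 0.117). The labels do not say that same-numbered libraries form pairs. Such libraries did not deviate together (correlation across 1284 genes -0.0848). The Tc1 libraries differed too little from each other for this to decide whether the numbers pair the libraries. No paired analysis was possible for 3 libraries because they share 1 number.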
